A study of Mus musculus with 30 samples.

Results

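The transcripts of 10 endothelial genes (*Kdr*, *Flt1*, *Tek*, *Eng*, *Cdh5*, *Cldn5*, *Pecam1*, *Emcn*, *Egfl7* and *Ehd3*) were followed in kidney and in gastrocnemius, the large calf muscle. They were taken by symbol from the gene name column of the 2 tables of read counts. All 10 were found among the 54838 genes of the kidney table and the 55487 genes of the gastrocnemius table. All 10 also passed the filter on low counts, which left 17120 and 15419 genes to be tested.

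The libraries came from wild-type male C57BL/6J mice of a study of non-alcoholic fatty liver disease, kept in thermoneutral cabinets (30 to 32 °C) from 6 weeks of age. The CD group ate chow and was gavaged with water. The WD group ate a western diet, rich in fat and sucrose, and was also gavaged with water. The WD + CHP group ate the western diet and received cyclo(His-Pro) (CHP), the cyclised His-Pro dipeptide, at 20 mg/kg by gavage 3 times per week, from Week 7 until tissue collection at Week 24 after a fast of 3 h. No group received CHP on chow, so an effect of CHP could be read only on the western diet. Each group had 5 libraries per tissue, 1 per mouse, and 30 libraries were analysed in all. The sources do not tie kidneys and muscles to individual mice. The sample labels name frozen liver as the starting material of both tissues, while the methods of the study name kidney and gastrocnemius.

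Endothelial cells line every blood vessel and form a small part of the cells of either tissue. Vascular endothelial growth factor (VEGF) acts on them through *Kdr* (VEGF receptor 2), the main signalling receptor, while *Flt1* (VEGF receptor 1) binds VEGF tightly and signals weakly. *Tek* encodes Tie2, the receptor of the angiopoietins, and *Eng* encodes endoglin, a co-receptor for bone morphogenetic protein 9 (BMP9) and for transforming growth factor beta. VE-cadherin (*Cdh5*), claudin-5 (*Cldn5*) and PECAM-1 (*Pecam1*) hold neighbouring endothelial cells together. Endomucin (*Emcn*) is a surface sialomucin of capillaries and veins, *Egfl7* encodes a secreted protein of the vessel wall and hosts the microRNA miR-126, and *Ehd3*, a protein of endosomal recycling, marks the endothelium of the glomerulus in kidney. In bulk tissue, fewer endothelial cells, less RNA of a gene per endothelial cell and less RNA of the gene from other cells cannot be told apart.

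The bases ahead of the transcription start are shown for *Eng* and *Cldn5*, since these were the 2 members with a call in both tissues. The windows were taken from RefSeq (GRCm38.p6) and run 5′ to 3′ on the plus strand over the 250 bases before the start, at chr2:32646345-32646594 for *Eng* and chr16:18776597-18776846 for *Cldn5*. Capitals mark AGGAAG, a word that can be bound by ETS factors, which many endothelial genes depend on, or its reverse complement CTTCCT.
Eng: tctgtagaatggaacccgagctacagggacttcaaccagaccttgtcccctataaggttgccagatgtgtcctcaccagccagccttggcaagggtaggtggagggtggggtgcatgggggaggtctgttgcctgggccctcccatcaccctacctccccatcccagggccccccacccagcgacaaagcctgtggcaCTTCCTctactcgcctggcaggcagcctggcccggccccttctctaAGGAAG
Cldn5: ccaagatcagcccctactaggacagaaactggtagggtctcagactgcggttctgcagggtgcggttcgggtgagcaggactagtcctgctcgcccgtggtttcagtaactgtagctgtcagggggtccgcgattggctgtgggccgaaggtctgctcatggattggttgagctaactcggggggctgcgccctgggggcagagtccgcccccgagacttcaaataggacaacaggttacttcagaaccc
The *Eng* window held the word at 52 and at 6 bases before the start, once on each strand, and the *Cldn5* window held none. The reference had such windows for 8 of the 10 members, and 4 of these 8 (*Eng*, *Flt1*, *Emcn* and *Egfl7*) held the word on either strand in at least 1 window. Counted by window, 5 of the 10 windows of members held it. Of all 32851 windows of the same length in the reference, 29.5% held it.

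The kidney libraries held 37189192 to 38211422 counts and the gastrocnemius libraries 50319024 to 53282969, of which mitochondrial genes took 17.8% to 21.1% and 7.74% to 11.5%. The 10 members together took 0.0466% to 0.0594% of the kidney counts and 0.0358% to 0.0453% of the gastrocnemius counts. Their lowest count in any library was 130 in kidney and 260 in gastrocnemius, both of *Cldn5*. The tissue labels fitted the markers, as 10 of 10 proximal tubule markers passed the filter in kidney and 1 of 10 in gastrocnemius, and 5 and 10 of 10 fast muscle fibre markers passed in the same order. Markers of hepatocytes were unevenly spread. Their summed level in CPM (counts scaled to a common library total) was 896 in kidney WD replicate 5, against 166 to 334 CPM in the other kidney libraries. It was 65.8 and 66.0 CPM in gastrocnemius CD replicate 1 and WD replicate 3, against 0.458 to 14.5 CPM in the other gastrocnemius libraries, and the calls of members in WD vs. CD and in gastrocnemius WD + CHP vs. CD are also given without them. The calls of the wider lists without them are given after those lists.

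Levels of different genes were compared as CPM per kilobase of exon, in the CD libraries. In kidney, *Eng* was the highest at 28.3 ± 2.44 (SD, n = 5), and its range did not overlap that of *Emcn*, the next at 13.3 ± 0.929. *Pecam1* followed at 10.1 ± 0.707, then *Cdh5* at 8.94 ± 0.665, *Kdr* at 8.54 ± 0.535 and *Tek* at 7.95 ± 0.668. Each of these last 4 overlapped its neighbour in the order, so their order is not settled by 5 libraries. *Flt1* (5.64 ± 0.731), *Ehd3* (5.25 ± 0.247) and *Egfl7* (4.74 ± 0.166) came below *Tek* without overlap with it, each overlapping the next of the 3, and *Cldn5* was the lowest at 3.46 ± 0.245, with no overlap.

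In gastrocnemius the order was different. *Cdh5* was the highest at 18.4 ± 1.48 CPM per kilobase, with no overlap with *Pecam1* (12.3 ± 0.491) and *Eng* (12.2 ± 0.638), which could not be ordered. *Cldn5* (6.89 ± 2.35), *Tek* (6.18 ± 0.565), *Kdr* (5.72 ± 0.802), *Flt1* (5.63 ± 0.0760) and *Egfl7* (4.97 ± 0.943) followed, and each of these 5 overlapped its neighbour among them. *Emcn* (1.503 ± 0.244) and *Ehd3* (0.937 ± 0.0495) were the lowest and stood apart.

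**Figure D1:**
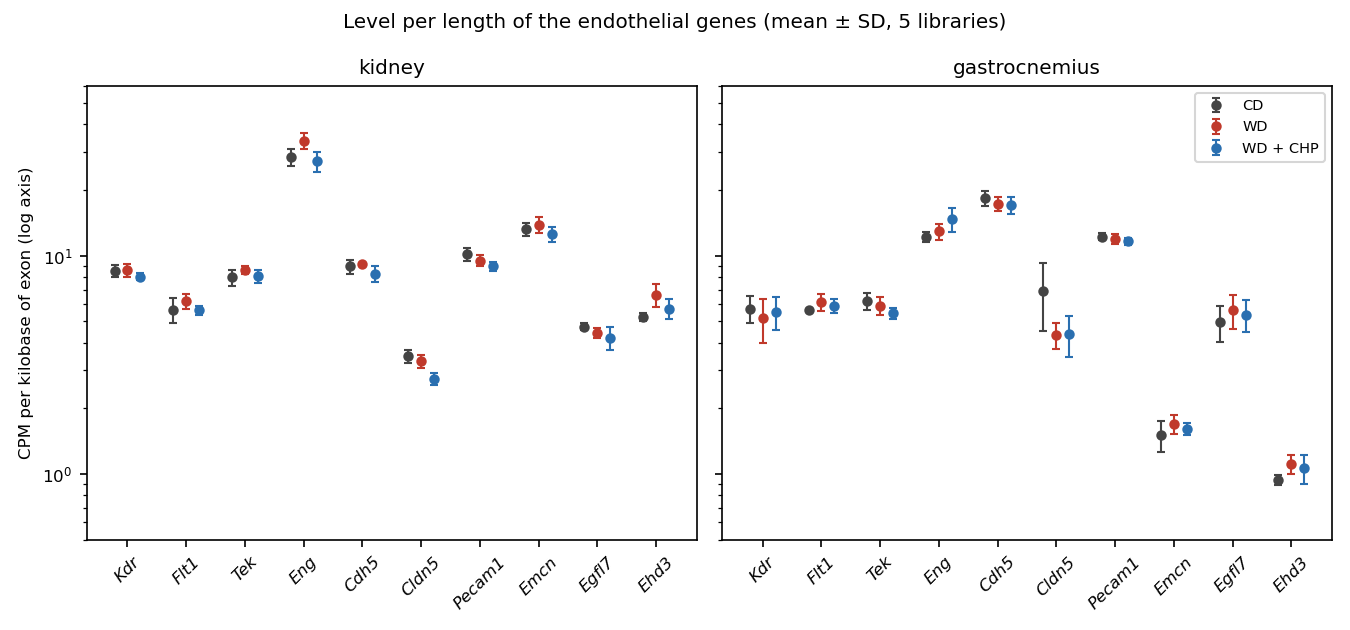
Level of each endothelial gene in CPM per kilobase of exon (log axis) in kidney (left) and gastrocnemius (right), as the mean and SD of 5 libraries for CD (grey), WD (red) and WD + CHP (blue). *Eng* was the highest in kidney and *Cdh5* in gastrocnemius, while *Emcn* and *Ehd3* were the lowest in gastrocnemius only.

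Because the tissues were counted in separate tables, the members were set against *Cdh5* within each library rather than tested across tissues. The ratio of *Emcn* to *Cdh5*, per kilobase, was 1.37 to 1.75 over the 15 kidney libraries and 0.0708 to 0.114 over the 15 gastrocnemius libraries. *Ehd3* stood at 0.566 to 0.829 of the level of *Cdh5* in kidney and at 0.0467 to 0.0768 in gastrocnemius. *Eng* stood at 3.01 to 3.998 and at 0.621 to 0.924, respectively. The ranges of both tissues were apart for *Eng*, *Emcn*, *Ehd3*, *Pecam1*, *Kdr*, *Flt1* and *Tek*, and they overlapped for *Cldn5* and *Egfl7*. The comparison of tissues is a description and carries no test.

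In kidney, *Eng* and *Ehd3* rose in WD vs. CD, and the other 8 members did not pass the test. With CHP on the western diet, no member passed the test against WD, yet all 10 fold changes lay below 0. Against CD, *Cldn5* and *Pecam1* were lower in WD + CHP. Tests were edgeR's quasi-likelihood F test, two-sided, with p adjusted by Benjamini-Hochberg over every gene tested and a threshold of 0.05, and fold changes are on the log2 scale with their SE.

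Among the receptors, *Eng* (chr2:32646595-32682669, plus strand, GRCm38) moved the most in kidney. Its level was 113, 115, 99.6, 127 and 117 CPM in CD replicates 1 to 5, 146, 138, 122, 148 and 126 CPM in WD, and 128, 109, 109, 109 and 95.3 CPM in WD + CHP. All 5 WD libraries lay above the CD mean, 3 of them above every CD library, and 4 of the 5 WD + CHP libraries lay below every WD library. *Eng* rose in WD vs. CD by 0.25 (SE 0.0757, adjusted p = 0.0461), from 114 ± 9.87 to 136 ± 11.4 CPM (SD, n = 5). The call was lost when any of CD replicates 1, 2, 3 and 5 or WD replicates 1, 2 and 4 was left out, with log2 fold changes of 0.21 to 0.26 and adjusted p of 0.0652 to 0.104, and under total count scaling (adjusted p = 0.0799). The log2 fold change of *Eng* in WD + CHP vs. WD was -0.31 (SE 0.0758), to 110 ± 11.6 CPM, with an adjusted p of 0.126 and an unadjusted p of 0.000828. DESeq2 gave the same fold change an adjusted p of 0.0136, and without WD + CHP replicate 1, the highest of its group, edgeR gave -0.36 and an adjusted p of 0.0474. Over the other alternatives the adjusted p of *Eng* in this comparison reached 0.289. WD + CHP and CD differed by -0.058 (95% interval -0.22 to 0.10).

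The receptors of VEGF and the angiopoietins varied less. *Kdr* (chr5:75932827-75978458, minus strand) was 71.4 to 84.8 CPM in CD (median 76.6), 69.4 to 83.7 CPM in WD (median 78.0) and 68.6 to 74.8 CPM in WD + CHP (median 73.9), and the 3 groups overlapped. Its log2 fold change was 0.011 in WD vs. CD and -0.10 in WD + CHP vs. WD (95% interval -0.21 to 0.0065). *Flt1* (chr5:147561604-147726011, minus strand) had group means of 76.2 ± 9.87, 83.9 ± 6.57 and 76.1 ± 3.68 CPM in CD, WD and WD + CHP. All 5 WD libraries of *Flt1* lay above the CD mean, and the 5 WD + CHP libraries lay below the WD mean. The differences were 0.14 (SE 0.0761) and -0.14 (SE 0.0761), with adjusted p of 0.270 and 0.510. *Tek* (chr4:94739289-94874976, plus strand) followed the same order at 37.5 ± 3.15, 40.6 ± 1.81 and 37.9 ± 2.58 CPM, with log2 fold changes of 0.12 and -0.10 and adjusted p of 0.229 and 0.540. Without CD replicate 4, the highest CD library, the difference of *Tek* in WD vs. CD was 0.17 (adjusted p = 0.0473).

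Of the junction genes in kidney, *Cldn5* (chr16:18776847-18778262, plus strand) was the lowest in level and the clearest in WD + CHP. It was 4.61, 5.42, 4.76, 4.62 and 5.06 CPM in CD, 4.70, 4.56, 4.85, 4.19 and 4.96 CPM in WD, and 4.02, 4.05, 3.62, 3.61 and 4.06 CPM in WD + CHP. Every WD + CHP library lay below every library of both other groups, while CD and WD overlapped. *Cldn5* fell in WD + CHP vs. CD by 0.34 (SE 0.0741, adjusted p = 0.00841), and it kept an adjusted p under the threshold, at most 0.0290, with each of the 10 libraries left out and under all 10 other alternatives. Against WD the log2 fold change was -0.26 (SE 0.0744, unadjusted p = 0.00249, adjusted p = 0.170). In WD vs. CD the log2 fold change of *Cldn5* was -0.073 (95% interval -0.23 to 0.081).

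*Pecam1* (chr11:106654217-106750628, minus strand) was 64.8, 63.7, 56.3, 68.4 and 62.6 CPM in CD, 56.2, 59.1, 60.2, 55.6 and 64.1 CPM in WD, and 55.7, 55.3, 52.2, 59.9 and 55.0 CPM in WD + CHP. CD was the highest group and WD + CHP the lowest, with overlap between neighbours, and 4 of the 5 WD + CHP libraries lay below every CD library. *Pecam1* fell in WD + CHP vs. CD by 0.18 (SE 0.0532, adjusted p = 0.0339). The call held in 6 of 10 alternatives, and was lost when any of CD replicates 1, 2, 4 and 5 or WD + CHP replicates 1, 2, 3 and 5 was left out (log2 fold changes of -0.18 to -0.14, adjusted p of 0.0595 to 0.0954).

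*Cdh5* (chr8:104101625-104144511, plus strand) was 39.1, 38.0, 32.9, 40.2 and 37.7 CPM in CD, 37.9, 38.8, 38.0, 39.2 and 38.3 CPM in WD, and 37.7, 35.3, 30.7, 37.3 and 32.8 CPM in WD + CHP. The WD libraries were close together, with a coefficient of variation of 1.47%, and all 5 WD + CHP libraries lay below them. The log2 fold change of *Cdh5* in WD + CHP vs. WD was -0.14 (SE 0.0589) with an unadjusted p of 0.0254 and an adjusted p of 0.355.

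Of the remaining members in kidney, *Ehd3* (chr17:73804134-73832094, plus strand) had the largest log2 fold change of the 10 in WD vs. CD. It was 36.5, 33.6, 32.5, 35.7 and 33.8 CPM in CD, 49.0, 45.3, 35.1, 42.4 and 44.8 CPM in WD, and 37.2, 35.6, 36.6, 44.1 and 34.4 CPM in WD + CHP. In WD, 4 of the 5 libraries exceeded every CD library and replicate 3 lay within the CD range, and in WD + CHP replicate 4 stood above the other 4. *Ehd3* rose in WD vs. CD by 0.33 (SE 0.0782, adjusted p = 0.0134), from 34.4 ± 1.62 to 43.3 ± 5.15 CPM. The call held with each of the 10 libraries left out (adjusted p at most 0.0385) and under all 10 other alternatives. The log2 fold change of *Ehd3* in WD + CHP vs. WD was -0.21 (SE 0.0781, unadjusted p = 0.0178, adjusted p = 0.316). Podocytes, which share the glomerulus with this endothelium, had 10 markers in the table, and none of the 10 passed the test in any comparison in kidney. Their summed level was 511 to 606 CPM in CD, 550 to 620 CPM in WD and 521 to 593 CPM in WD + CHP.

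*Emcn* (chr3:137341067-137432185, plus strand) had means of 71.7 ± 5.02, 75.0 ± 6.38 and 68.0 ± 5.21 CPM in CD, WD and WD + CHP, with overlap of all groups. Its log2 fold change in WD + CHP vs. WD was -0.14 (unadjusted p = 0.0420, adjusted p = 0.419). *Egfl7* (chr2:26580014-26593120, plus strand) had means of 17.0 ± 0.593, 15.9 ± 0.872 and 15.04 ± 1.76 CPM, in the order CD, WD and WD + CHP. Against CD it differed in WD + CHP by -0.17 (adjusted p = 0.105), and 4 of 5 libraries lay below every CD library. *Egfl7* came under the threshold with total count scaling (-0.23, adjusted p = 0.0433) and without its highest WD + CHP library, replicate 1 (-0.21, adjusted p = 0.0486). Exons of *Egfl7* overlap those of *Agpat2* and *Gm20532* and the miR-126 annotations *Mir126a* (plus strand) and *Mir126b* (minus strand). In *Eng*, 61 bases overlap *Fpgs* on the other strand. The strand setting of the counting is not given in the sources used here, so reads from these stretches cannot be assigned to 1 gene.

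**Figure D2:**
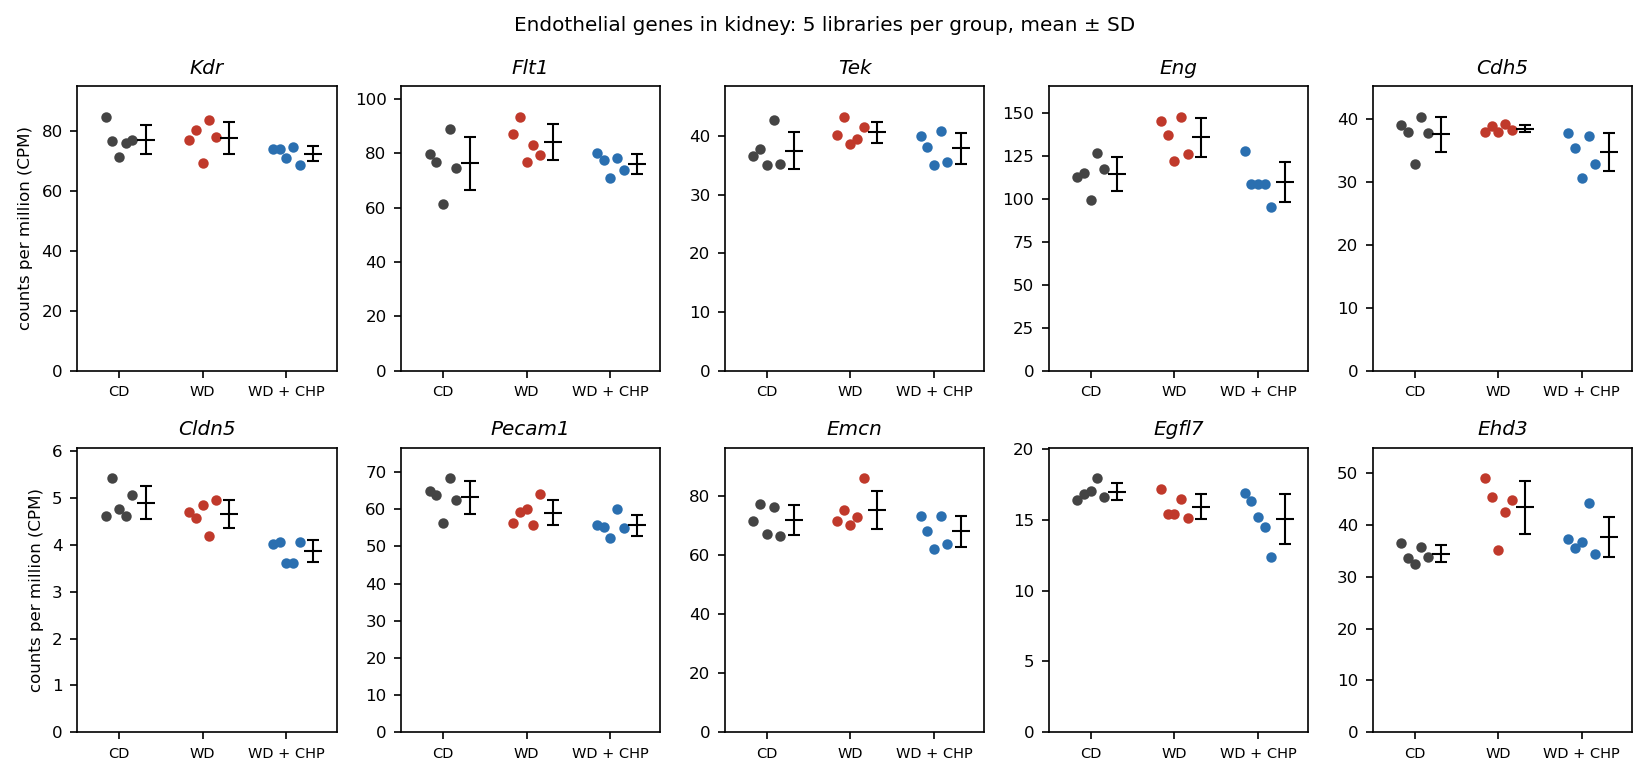
Level of the 10 endothelial genes in kidney in CPM (axes from 0), 1 point per library, with the mean and SD of each group of 5 beside the points. *Eng* and *Ehd3* were highest in WD, and in *Cldn5* all 5 WD + CHP libraries lay below the libraries of CD and WD.

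Counted over the list, 2 of the 10 members were called in kidney WD vs. CD, both higher, where 9.65% of all genes tested were called and 4.62% were called higher. Their median log2 fold change was 0.048, against 0.0015 over all genes. In WD + CHP vs. WD, edgeR called 0 of 10 members and 18 genes in all, 0.105% of those tested, while limma-voom called 0 members and DESeq2 called 1, *Eng*. All 10 log2 fold changes were below 0, from -0.31 for *Eng* to -0.081 for *Egfl7*, with a median of -0.14 against -0.0058 over all genes, of which 52.4% lay below 0. All 10 stayed below 0 under all 10 alternatives and without each of the 10 kidney libraries of WD and WD + CHP. At an unadjusted p under 0.05 there were 5 members (*Eng*, *Cldn5*, *Cdh5*, *Emcn* and *Ehd3*), where 11.4% of all genes reached that level. For 2 members, *Cldn5* and *Cdh5*, every WD + CHP library lay below every WD library, against 0.835% of all genes. In WD + CHP vs. CD, 2 of 10 members were called, both lower, against 12.1% of all genes called and 5.84% called lower. In that comparison *Cldn5* was the 1 member whose groups did not overlap, with 3.93% of all genes lower without overlap. These 3 comparisons share their groups, so a high WD library enters both the diet effect and the CHP effect.

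The members moved together across the kidney libraries, so the 10 fold changes are not 10 separate observations. Over the 15 libraries, the Pearson correlation between the log2 CPM of 2 members had a median of 0.46 over 45 pairs and was above 0 in 42. After each group mean was subtracted, the median was 0.39, and *Cldn5* was the only member to run against the mean of the others (r = -0.15), while *Cdh5* followed it the closest (r = 0.85). The non-member genes most like the mean of the members were *Slc37a2* (r = 0.91), *Cpm* (0.88), *Stab1* (0.87), *Dlc1* (0.85) and *Ltbp1* (0.85). With the group means removed, *Stab1* (0.93), *Amotl1* (0.89), *Itga8* (0.88), *Dlc1* (0.88) and *Itpripl2* (0.86) came first. None of these non-member genes belonged to the wider endothelial lists described below. All points share library preparation and depth, and no test was made of these values. Pairs of other genes were not measured in the same way, so the correlation is not shown to be particular to the members.

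In gastrocnemius, *Cldn5* was lower in both groups on the western diet than in CD, and *Eng* was higher in WD + CHP than in CD. No member passed the test for WD + CHP vs. WD.

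*Eng* in gastrocnemius was 47.7, 52.6, 49.6, 45.9 and 50.6 CPM in CD, 53.7, 50.9, 59.3, 50.4 and 47.8 CPM in WD, and 66.0, 52.2, 57.7, 52.8 and 69.1 CPM in WD + CHP. The groups overlapped, with WD + CHP replicates 1 and 5 above every other library and 4 of its 5 libraries above every CD library. *Eng* rose in WD + CHP vs. CD by 0.27 (SE 0.0785, adjusted p = 0.0372), from 49.3 ± 2.58 to 59.6 ± 7.65 CPM. The call held in 7 of 11 alternatives. It was lost without any of CD replicates 1, 3, 4 and 5 or WD + CHP replicates 1, 3 and 5 (log2 fold changes of 0.22 to 0.29, adjusted p of 0.0596 to 0.0962). WD vs. CD gave a log2 fold change of 0.0895 (adjusted p = 0.527), and WD + CHP vs. WD gave 0.18 (SE 0.0784, unadjusted p = 0.0311, adjusted p = 0.340).

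The other receptors did not pass the test in gastrocnemius, other than *Flt1* in WD vs. CD under total count scaling (0.19, adjusted p = 0.0293). *Kdr* was 44.6 to 63.7 CPM in CD (median 49.0), 35.9 to 63.6 CPM in WD (median 43.7) and 37.7 to 60.3 CPM in WD + CHP (median 49.7), and its coefficient of variation within groups, 14.03% to 22.9%, was the widest of the receptors. *Flt1* was tight in CD, at 76.0 ± 1.03 CPM, and 82.9 ± 7.49 and 79.7 ± 6.25 CPM in WD and WD + CHP. WD replicates 1, 2 and 3, at 93.0, 88.1 and 81.0 CPM, lay above every CD library, and the difference of 0.13 (SE 0.0616) had an adjusted p of 0.226. *Tek* was 29.1 ± 2.66, 27.9 ± 2.54 and 25.7 ± 1.56 CPM in CD, WD and WD + CHP. In WD + CHP, 4 of 5 *Tek* libraries lay below every CD library, with a difference of -0.18 (SE 0.0711, unadjusted p = 0.0196, adjusted p = 0.114).

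*Cldn5* in gastrocnemius was 12.8, 13.9, 7.66, 6.51 and 7.95 CPM in CD, 5.39, 5.28, 6.76, 5.96 and 7.20 CPM in WD, and 7.12, 4.96, 5.38, 5.51 and 8.05 CPM in WD + CHP. CD replicates 1 and 2 stood far above all other libraries, and the other 3 CD libraries overlapped the WD and WD + CHP libraries. The difference in WD vs. CD was -0.67 (SE 0.195, adjusted p = 0.0408) and that in WD + CHP vs. CD was -0.65 (SE 0.195, adjusted p = 0.0445), from 9.76 ± 3.33 CPM to 6.12 ± 0.840 and 6.20 ± 1.32 CPM. Without CD replicate 1 the 2 differences were -0.56 and -0.54 (adjusted p of 0.100 and 0.105), and without CD replicate 2 they were -0.51 and -0.48 (adjusted p of 0.0940 and 0.104). Neither call held in limma-voom, under total count scaling, with only the 2 groups compared or with a replicate block. The call in WD vs. CD was also lost without any of WD replicates 1 to 4 (adjusted p at least 0.0576), and that in WD + CHP vs. CD without any of WD + CHP replicates 2 to 4 (adjusted p at least 0.0898) and with no filter on low counts. WD + CHP and WD differed by 0.020 (95% interval -0.40 to 0.44).

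*Pecam1* and *Cdh5*, the other junction genes, were steady in gastrocnemius. *Pecam1* had means of 76.3 ± 3.06, 74.6 ± 4.02 and 72.4 ± 2.39 CPM and *Cdh5* of 77.3 ± 6.24, 72.7 ± 5.53 and 71.8 ± 6.19 CPM in CD, WD and WD + CHP. No group of either gene stood apart from another. Their log2 fold changes lay between -0.11 and -0.019 over the 3 comparisons.

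*Ehd3* was 5.63, 6.41, 6.37, 6.29 and 6.03 CPM in CD, 7.51, 8.39, 6.83, 6.89 and 6.72 CPM in WD, and 6.32, 6.79, 6.43, 8.83 and 6.49 CPM in WD + CHP. Every WD library lay above every CD library, and WD + CHP replicate 4 stood apart from its group. The difference in WD vs. CD was 0.24 (SE 0.0922, unadjusted p = 0.0182) and did not pass the adjusted threshold (adjusted p = 0.115), other than under total count scaling (0.31, adjusted p = 0.0314). *Emcn* (8.13 ± 1.32, 9.17 ± 0.955 and 8.70 ± 0.523 CPM) and *Egfl7* (17.8 ± 3.38, 20.2 ± 3.60 and 19.3 ± 3.29 CPM) overlapped between all groups.

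**Figure D3:**
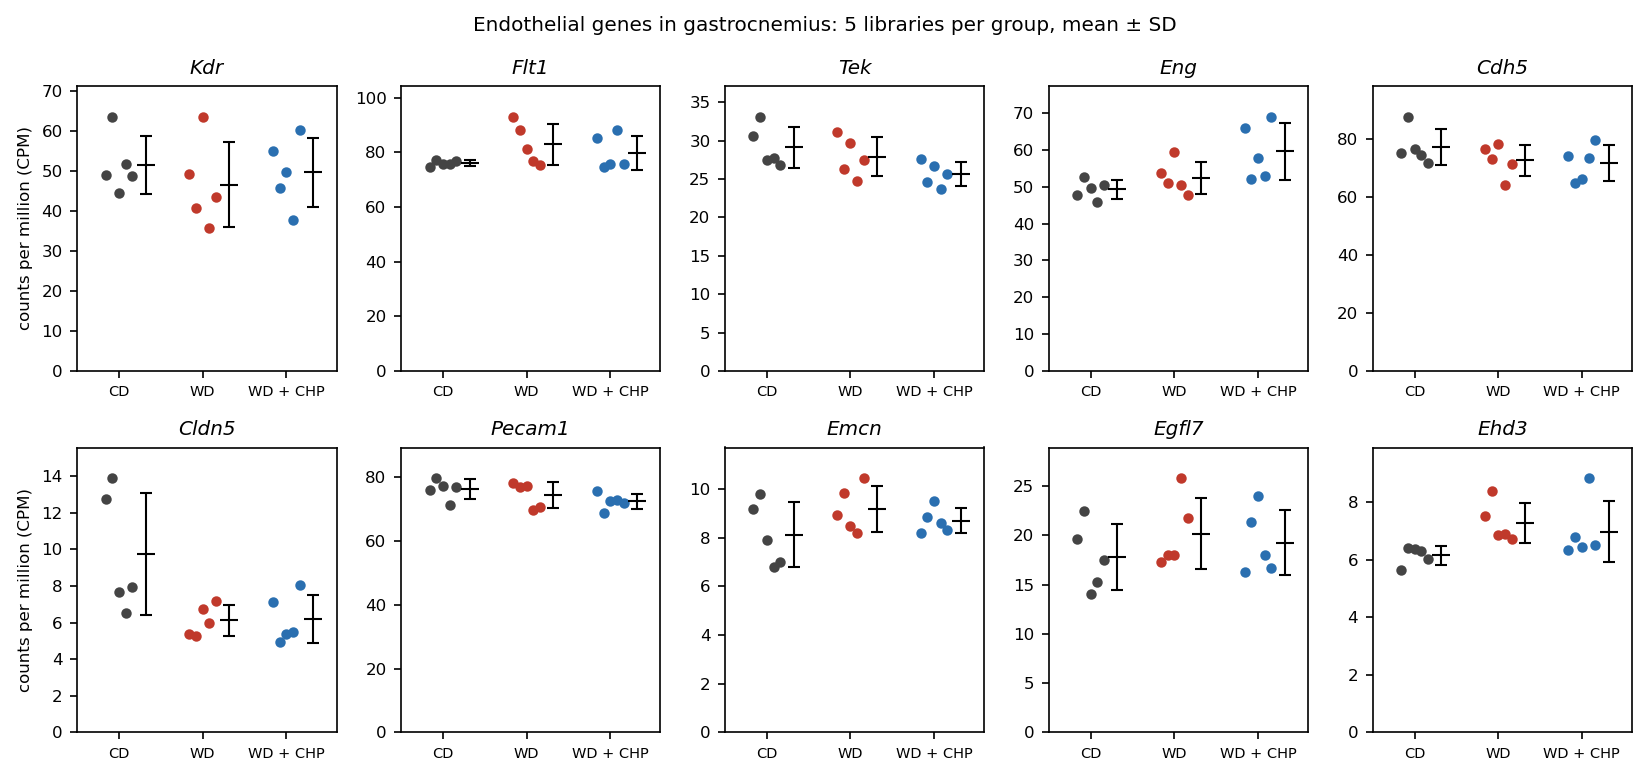
Level of the 10 endothelial genes in gastrocnemius in CPM (axes from 0), 1 point per library, with the mean and SD of each group of 5 beside the points. In *Cldn5* the CD mean was raised by 2 libraries at 12.8 and 13.9 CPM, and in *Ehd3* all 5 WD libraries lay above the CD libraries.

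Over the list, 1 of 10 members was called in gastrocnemius WD vs. CD, lower, against 8.63% of all genes tested called and 3.96% called lower. *Ehd3* was the 1 member whose WD libraries all lay above the CD libraries, against 4.09% of all genes. In WD + CHP vs. WD, edgeR, limma-voom and DESeq2 each called 0 of 10 members, edgeR called 63 genes in all (0.409%), and 1 member had an unadjusted p under 0.05 (12.5% of all genes). There 7 of 10 log2 fold changes lay below 0, against 54.1% of all genes. In WD + CHP vs. CD, 2 of 10 members were called, *Eng* higher and *Cldn5* lower, against 9.40% of all genes. With the 2 libraries rich in hepatocyte markers left out together, an alternative chosen after seeing the data, 0 members were called in WD vs. CD and 0 in WD + CHP vs. CD. *Cldn5* was then at -0.60 (adjusted p = 0.122) and -0.54 (adjusted p = 0.116), and *Eng* at 0.26 (adjusted p = 0.0642) in WD + CHP vs. CD.

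In gastrocnemius, the median correlation of 45 pairs was 0.060, and 29 pairs were above 0. With group means subtracted the median was 0.24, 31 pairs were above 0 and 15 were above 0.5, against 19 above 0.5 in kidney. Then *Cdh5* (r = 0.79), *Tek* (0.76), *Pecam1* (0.74), *Cldn5* (0.57) and *Kdr* (0.54) followed the mean of the other members the closest, while *Egfl7* (r = -0.20) and *Ehd3* (r = -0.12) ran against it. No test compared the tissues in these values. The genes most like the mean of the members were *Smo* (r = 0.86), *Parva* (0.86), *Gas7* (0.86), *Fam129a* (0.84) and *Wwtr1* (0.82), and with the group means removed *Ntn1* (0.91), *Parva* (0.89), *Retsat* (0.88), *Mgll* (0.88) and *Mark1* (0.88).

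The effects were compared between tissues in a model of all 30 libraries, over 13943 genes. The model treated kidney and gastrocnemius libraries as independent, which would not hold if they came from the same mice. Of 30 differences (10 members, 3 comparisons), 1 had an adjusted p under 0.05. The effect of CHP on *Eng* was higher in gastrocnemius than in kidney by 0.50 (SE 0.113, adjusted p = 0.0270), where 0.689% of all genes were called, with *Eng* 0.31 below WD in kidney and 0.18 above WD in gastrocnemius. It held in limma-voom (adjusted p = 0.0346) and under total count scaling (0.0465), and in 11 of 20 fits with 1 library left out. It was lost without kidney WD replicate 1 or 4, kidney WD + CHP replicate 2, 3 or 4, gastrocnemius WD replicate 1 or 2, or gastrocnemius WD + CHP replicate 1 or 5, with differences of 0.44 to 0.51 and adjusted p of 0.0504 to 0.0688. For *Eng* in WD + CHP vs. CD the tissues differed by 0.34 (SE 0.113, adjusted p = 0.0574). The difference of *Cldn5* in WD vs. CD, -0.61 (SE 0.228, adjusted p = 0.113), did not pass. The other 29 differences had an adjusted p above 0.05, and 4 of the 30 had an unadjusted p under 0.05. Over all genes, 6.24% were called for the difference in WD vs. CD and 9.41% for that in WD + CHP vs. CD.

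**Figure D4:**
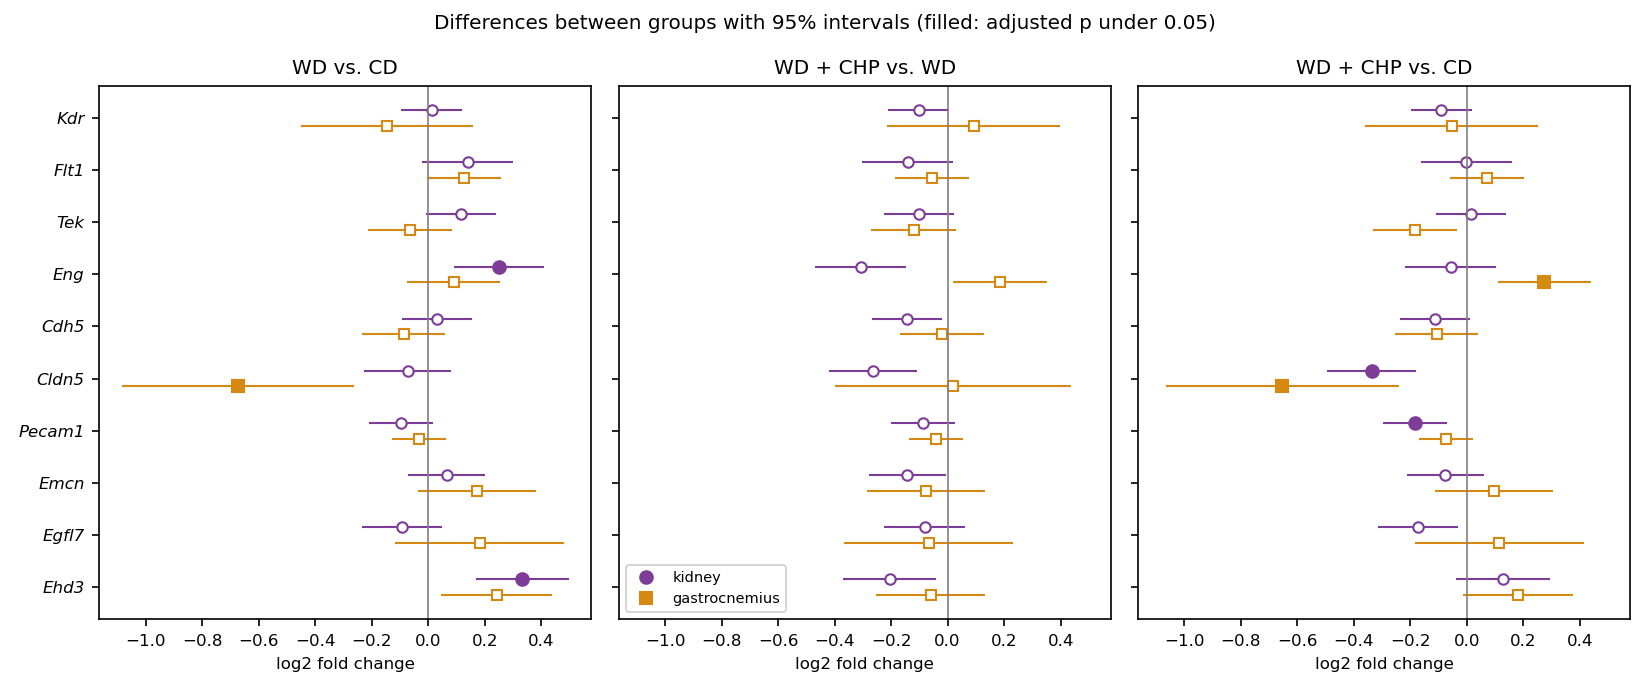
Log2 fold change of each endothelial gene (x axis) with its 95% interval in WD vs. CD, WD + CHP vs. WD and WD + CHP vs. CD, for kidney (purple circles) and gastrocnemius (orange squares), with filled symbols where the adjusted p was under 0.05. In the middle panel all 10 kidney symbols lie left of 0, and the *Eng* symbols of both tissues lie on opposite sides of it.

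The wider pathway was described from lists drawn up by function. Of 34 other pan-endothelial genes, 2 were called in kidney WD vs. CD, where 9.65% of all genes were called, and none in WD + CHP vs. WD, where 0.105% were called. The shares of all genes called were 12.1% in kidney WD + CHP vs. CD and 8.63%, 0.409% and 9.40% in gastrocnemius WD vs. CD, WD + CHP vs. WD and WD + CHP vs. CD, and the counts of every list are to be read against them. *Aplnr*, the apelin receptor, fell by 0.71 (SE 0.145, adjusted p = 0.00616), from 6.19 ± 1.07 to 3.78 ± 0.635 CPM, and *Cyyr1* rose by 0.35 (adjusted p = 0.0211). For WD + CHP vs. WD, 30 of the 34 lay below 0, with a median of -0.11, beside the 10 of 10 members and 52.4% of all genes. Against CD, WD + CHP kidneys had 3 called. *Aplnr* fell by 0.48, *Fli1*, an ETS factor, fell by 0.35 (adjusted p = 0.00859) and *Cyyr1* rose by 0.36. In gastrocnemius, 3 of the 34 rose in WD vs. CD, *Ramp2* by 0.33, *Arhgef15* by 0.33 and *Sox17* by 0.27, and 4 rose in WD + CHP vs. CD, *Notch4* by 0.36, *Arhgef15* by 0.35, *Sox17* by 0.33 and *Nos3*, the endothelial nitric oxide synthase, by 0.25. None of the 34 was called in gastrocnemius WD + CHP vs. WD, and 17 lay below 0.

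Around the receptors, 26 of 28 genes of the VEGF, angiopoietin and BMP pathways were tested in each tissue. *Acvrl1*, which encodes ALK1, the BMP9 receptor that works with endoglin, rose in WD vs. CD in both tissues. It went from 12.4 ± 1.91 to 15.7 ± 0.851 CPM in kidney (0.34, SE 0.0825, adjusted p = 0.0157) and from 14.1 ± 1.15 to 18.2 ± 2.21 CPM in gastrocnemius (0.37, SE 0.0882, adjusted p = 0.0150). It was the 1 gene of the list called in kidney WD vs. CD. In kidney WD + CHP vs. CD, 3 were called, *Smad9* and *Angpt2* (a Tie2 ligand) lower by 0.68 and 0.56 on the log2 scale, and *Tgfbr1* higher by 0.15. In gastrocnemius WD vs. CD, 3 were called, all higher, the ligands *Pgf* (0.87) and *Angpt1* (0.49) and *Acvrl1*. In gastrocnemius WD + CHP vs. CD, 4 were called, all higher, *Pgf* (0.74), *Angpt1* (0.41), *Acvrl1* (0.36) and *Vegfb* (0.25, adjusted p = 0.0138). No gene of the list was called in WD + CHP vs. WD in either tissue, and 21 of 26 lay below 0 in kidney and 16 of 26 in gastrocnemius.

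Among 15 partners of the adherens and tight junctions, none was called in WD vs. CD or WD + CHP vs. WD in either tissue. For WD + CHP vs. CD, *Mpp5* (0.28) and *Afdn* (0.21) rose and *Ctnnd1*, the catenin that binds the tail of VE-cadherin, fell by 0.24 (adjusted p = 0.0169) in kidney, while *Tjp1* (which encodes ZO-1) fell by 0.30 (adjusted p = 0.00407) and *Afdn* fell by 0.28 in gastrocnemius. Epithelial and muscle cells also express these junction partners.

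Of 17 arterial, venous and lymphatic markers, 14 were tested in kidney and 16 in gastrocnemius. *Dll4*, a Notch ligand of arteries and sprouting tips, fell in WD vs. CD in both tissues, by 0.44 in kidney (adjusted p = 0.0279) and by 0.32 in gastrocnemius (adjusted p = 0.0345), where *Gja5* rose by 0.43 and *Jag1* fell by 0.31. In gastrocnemius WD + CHP vs. CD, *Mmrn1* fell by 0.67, *Jag1* fell by 0.32 and *Gja5* rose by 0.38, and in kidney none was called. Of 13 genes of endothelial activation, 4 were called in kidney WD vs. CD, against 9.65% of all genes. *Apln*, the ligand of the apelin receptor, fell by 0.81 (adjusted p = 0.00587), from 8.05 ± 1.80 to 4.597 ± 0.521 CPM, while *Klf2* (0.48), *Klf4* (0.46) and *Thbd* (0.43) rose. In kidney WD + CHP vs. CD, *Vcam1* rose by 0.47 and *Angpt2* fell. In gastrocnemius, 2 of 12 tested were called in WD vs. CD, both higher, among them *Thbd* (0.44), and 2 of 12 in WD + CHP vs. CD, *Thbd* (0.43) and *Nos3*, both higher. None of either list was called in WD + CHP vs. WD in either tissue.

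Without the libraries highest in hepatocyte markers, an alternative chosen after seeing the data, all called genes of these 5 lists kept the sign of their fold change, but some calls were lost with fewer libraries; the values in parentheses here are the adjusted p without those libraries. In kidney WD vs. CD, 7 of 8 stayed called without WD replicate 5, and *Dll4* did not (0.0546), at a log2 fold change of -0.43 against -0.44 with all libraries. In gastrocnemius, without CD replicate 1 and WD replicate 3, 6 of 11 stayed called in WD vs. CD. *Acvrl1* (0.0735), *Sox17* (0.0608), *Gja5* (0.0551), *Dll4* (0.0545) and *Jag1* (0.0603) did not. In that order, their log2 fold changes were then 0.34, 0.30, 0.44, -0.37 and -0.30, against 0.37, 0.27, 0.43, -0.32 and -0.31 with all libraries. In WD + CHP vs. CD, 10 of 14 stayed called, and *Nos3* (0.0514), *Pgf* (0.0514), *Afdn* (0.0960) and *Gja5* (0.0709) did not. In that order, their log2 fold changes were then 0.27, 0.78, -0.24 and 0.37, against 0.25, 0.74, -0.28 and 0.38 with all libraries. Of the called markers of other cell types, *Acta2* (0.0627) and *Kap* (0.0744) were lost in kidney WD vs. CD. In gastrocnemius, *Mcam* (0.0917) was lost in WD vs. CD, *Lep* (0.0570) in WD + CHP vs. WD and *Higd1b* (0.0716) in WD + CHP vs. CD.

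Markers of neighbouring cells were read beside these results, and their part in them was not tested. In kidney WD vs. CD, 3 of 12 mural cell markers were called, *Acta2* and *Notch3* higher and *Kcnj8* lower, with a summed level over all 12 of 196 to 251 CPM in CD, 218 to 281 CPM in WD and 207 to 233 CPM in WD + CHP. In kidney WD + CHP vs. WD, 0 of 12 mural cell markers were called and 10 of 12 lay below 0, with a median log2 fold change of -0.17, beside -0.14 for the endothelial members. Podocyte markers lay below 0 in 7 of 10 (median -0.097), hepatocyte markers in 6 of 8 (median -1.69, 5 at an unadjusted p under 0.05), red blood cell markers in 5 of 6 (median -0.11) and leukocyte and platelet markers in 6 of 9 (median -0.048) in that comparison. Adipocyte markers lay above 0 in 6 of 7 (median 0.13) and proximal tubule markers in 6 of 10 (median 0.017). The summed level of the hepatocyte markers in kidney was 896 CPM in WD replicate 5 and 213 to 294 CPM in the other WD libraries. In WD + CHP it was 230 to 317 CPM, so the high WD level came from 1 library. In gastrocnemius WD vs. CD, 4 of 12 mural cell markers were called, all higher (*Acta2*, *Higd1b*, *Tagln* and *Mcam*), with sums of 811 to 880 CPM in CD, 827 to 934 CPM in WD and 767 to 895 CPM in WD + CHP. The first 3 of these were also higher in gastrocnemius WD + CHP vs. CD. Of the leukocyte and platelet markers, 1 of 9 tested in kidney was called in WD vs. CD (*Itga2b*, lower, as in WD + CHP vs. CD) and none of 8 in gastrocnemius. Most of this list went the other way in kidney. There 6 of 9 lay above 0 in WD vs. CD (median 0.17, 5 of the 9 at an unadjusted p under 0.05) and 6 of 9 in WD + CHP vs. CD (median 0.12). Red blood cell markers ranged from 73.3 to 311 CPM in kidney with 0 of 6 called in WD vs. CD, and from 2.61 to 49.5 CPM in gastrocnemius, the highest in WD replicate 1, with 0 of 4 called. In gastrocnemius all 4 lay above 0 in WD vs. CD (median 1.60, 3 at an unadjusted p under 0.05) and all 4 lay below 0 in WD + CHP vs. WD (median -1.37, 4 at an unadjusted p under 0.05). Leukocyte and platelet markers in gastrocnemius lay above 0 in 7 of 8 (median 0.29) and below 0 in 7 of 8 (median -0.36) in the same order. Of the hepatocyte markers there, 5 of 5 lay above 0 in WD vs. CD (median 0.32) and 5 of 5 below 0 in WD + CHP vs. WD (median -3.66, 5 at an unadjusted p under 0.05). Their summed level was 66.0 and 14.5 CPM in WD replicates 3 and 2, and 0.651 to 5.13 CPM in the other WD libraries. It was 0.458 to 2.81 CPM in WD + CHP, and 65.8 CPM in CD replicate 1.

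Of 9 adipocyte markers in gastrocnemius, 5 were called in WD vs. CD, against 8.63% of all genes, and 4 in WD + CHP vs. WD, against 0.409%. In WD vs. CD, 4 of 9 rose, among them *Lep* by 3.96, *Cidec* by 1.38 and *Adipoq* by 1.00, and *Cfd* fell by 1.59. In WD + CHP vs. WD 4 of 9 fell (*Lep* by 1.89, *Cidec* by 1.31, *Adipoq* by 1.15 and *Plin1* by 0.98), with sums of 1135 to 1559, 1117 to 1588 and 961 to 1375 CPM in CD, WD and WD + CHP, which overlapped. Against CD, *Lep* rose in WD + CHP by 2.08 and *Cfd* fell by 1.59. Of 7 podocyte markers tested in gastrocnemius, *Podxl*, which endothelial cells also express, rose in WD vs. CD (0.33) and in WD + CHP vs. CD. Slow muscle fibre markers summed to 2977 to 5714 CPM in CD, 3772 to 7053 CPM in WD and 4425 to 6171 CPM in WD + CHP, with 0 of 8 called. All 8 lay above 0 in WD vs. CD (median 0.55, 4 at an unadjusted p under 0.05) and in WD + CHP vs. CD (median 0.37, 2 at an unadjusted p under 0.05). Of the fast muscle fibre markers 0 of 10 were called in gastrocnemius. The mitochondrial share was 7.74% to 10.2% of counts in CD, 9.09% to 10.5% in WD and 9.49% to 11.5% in WD + CHP. Fast muscle fibre markers summed to 194827 to 236170 CPM in CD, 173914 to 205963 CPM in WD and 177155 to 208911 CPM in WD + CHP, and 9 of 10 lay below 0 in WD vs. CD (median -0.15) and 9 of 10 in WD + CHP vs. CD (median -0.17). In kidney, 4 of 10 proximal tubule markers were called in WD vs. CD, *Slc5a2* and *Miox* higher and *Cubn* and *Kap* lower, and the sum of all 10 was 33120 to 36572 CPM in CD, 29708 to 33212 CPM in WD and 32666 to 37401 CPM in WD + CHP. The mitochondrial share in kidney was 17.8% to 19.6% in CD, 18.7% to 20.9% in WD and 18.9% to 21.1% in WD + CHP. In kidney WD vs. CD, 3 of 8 hepatocyte markers were called, *Ttr* and *Serpina1a* higher and *Fga* lower. Of the 8, 7 lay above 0 (median 1.30, 5 of the 8 at an unadjusted p under 0.05). Without kidney WD replicate 5, the library highest in hepatocyte markers, *Eng* (0.28, adjusted p = 0.0392) and *Ehd3* (0.33, adjusted p = 0.0264) were still called. Of 7 adipocyte markers tested in kidney, *Cfd* (by 2.47) and *Lipe* (by 0.37) fell in WD vs. CD, and *Lipe* fell by 0.24 in WD + CHP vs. CD. Of the other lists in kidney, *Pvalb* of the fast fibre markers rose in WD vs. CD and in WD + CHP vs. CD, both by 0.51. For WD + CHP vs. CD in kidney, *Tnnc1* of the slow fibre markers rose by 0.95, *Slc4a1* of the red blood cell markers fell by 0.37, *Slc5a2* (0.30) and *Miox* (0.24) rose and *Cubn* fell by 0.21 among the proximal tubule markers, and *Ttr* of the hepatocyte markers rose by 0.86. *Slc4a1* and *Ttr* went against most of their lists, as 5 of 6 red blood cell markers lay above 0 (median 0.24) and 5 of 8 hepatocyte markers below 0 (median -0.52).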

How the data were processed

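The authors sequenced polyA-enriched libraries on a BGISEQ-500, cleaned reads with SOAPnuke and aligned them with STAR 2.7.3a, to GRCm38 (mm10) per the submitters' processing notes. They deposited raw counts per gene, whole numbers without normalisation. The counting tool, annotation and strand setting are not given in the sources used here. All columns were matched to libraries by label (0 without a sample).

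The 10 genes and the lists were chosen with earlier results of these data known. Counts were analysed with edgeR 4.0.16 in R 4.3.3. Genes were kept by filterByExpr (minimum count 10), TMM scaling was applied, and each tissue had 1 quasi-likelihood model of its 3 groups. WD vs. CD, WD + CHP vs. WD and WD + CHP vs. CD were tested, adjusted over all genes. CPM used TMM-scaled totals, and log2 CPM a prior count of 2. Coordinates and exon lengths came from GENCODE M21. In each tissue and comparison, all 10 members were named, from each list the genes with an adjusted p under 0.05 (at most the 4 largest changes), and the 5 genes most like the mean of the members.

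Alternatives were DESeq2 1.42.0, limma-voom (limma 3.58.1), other scalings and filters, a replicate block, loess offsets for length and GC content, only the 2 groups compared and each library left out. Libraries of a group differed by more than counting error. In simulated counts, 100 genes were changed by 0.25 (log2) and 100 by 0.5 between CD and the other groups, and none between WD + CHP and WD. The model called 32% of genes changed by 0.25 and 94% of those changed by 0.5 in kidney WD vs. CD (16952 genes). In gastrocnemius it called 16% and 85% (15299 genes). Figures were drawn with matplotlib 3.10.9 in Python 3.11.15. Liver libraries were not analysed here. Of the genes named by this rule, 1 is not reported here.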

Additional observations from a re-analysis of the deposited data

Results flagged for a closer look

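*Ehd3* in WD + CHP replicate 4 stood far from the other 4 libraries of its group in both tissues, at 44.1 CPM in kidney, where the next highest was 37.2 CPM, and at 8.83 CPM in gastrocnemius, where the next was 6.79 CPM. In all, 60 groups of 5 libraries were searched (Dixon's ratio above 0.71) and 2 had such a library, while chance gives about 1 in 20 groups. Whether replicate 4 is the same mouse in both tissues is not stated.

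The effect of CHP on the western diet differed between tissues for *Eng*, by 0.50 on the log2 scale, higher in gastrocnemius than in kidney (edgeR interaction, adjusted p = 0.0270). It was 1 of 30 differences tested, with the libraries of both tissues treated as independent. The call was lost in 9 of 20 fits with 1 library left out (adjusted p of 0.0504 to 0.0688). Within a tissue, edgeR did not call the CHP effect on *Eng* (adjusted p = 0.126 in kidney and 0.340 in gastrocnemius). In kidney 5 of 5 WD + CHP libraries lay below the WD mean, and in gastrocnemius 4 of 5 lay above it.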

How the results depend on the processing

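Of 630 fold changes of members under the alternatives, 586 kept their direction and call, 24 changed only in call and 20 changed sign. With each library left out, 545 of 600 kept both. For the differences between tissues these were 58 of 60 and 551 of 600. The cause of a changed count was not tested. Members called in kidney were 1 for WD + CHP vs. WD in DESeq2, 1 for WD vs. CD under total count scaling, and 1 for WD + CHP vs. CD with no filter, with length and GC offsets, with these and the replicate block, and with only the 2 groups compared. In gastrocnemius WD vs. CD they were 2, both higher, under total count scaling, and 0 in limma-voom, with the replicate block, with only the 2 groups compared and without the 2 libraries highest in hepatocyte markers. In gastrocnemius WD + CHP vs. CD they were 1 in limma-voom, under total count scaling, with the block and offsets together and with only the 2 groups compared, and 0 with no filter, with the replicate block and without the 2 libraries. All genes called in kidney WD + CHP vs. WD (18) were 194 in DESeq2, 37 with no filter, 70 with the replicate block, and 0 with the offsets or only the 2 groups compared. In gastrocnemius WD + CHP vs. WD (63) they were 249 in DESeq2, 40 with no filter and 26 without the 2 libraries, which also gave 805 in WD vs. CD (1330).

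The sign changed for fold changes near 0. Kidney *Flt1* in WD + CHP vs. CD was 0.000524 in DESeq2, 0.00652 in limma-voom, 0.000526 with DESeq2 size factors, 0.00396 with the replicate block, 0.00530 with the offsets and 0.0108 with block and offsets. Under total count scaling, kidney *Kdr* was -0.00655 in WD vs. CD and *Tek* -0.0375 in WD + CHP vs. CD, and in gastrocnemius *Pecam1* was 0.0326 and *Tek* 7.95e-05 in WD vs. CD and *Cldn5* -0.0264 in WD + CHP vs. WD. The difference between tissues was then 0.0496 for *Flt1* in WD vs. CD and 0.386 for *Eng* in WD + CHP vs. CD (adjusted p = 0.0369). With the offsets, gastrocnemius WD + CHP vs. WD gave *Cldn5* -0.0175, *Cdh5* 0.00559, *Flt1* 0.000923 and *Emcn* 0.000543, and WD + CHP vs. CD gave *Kdr* 0.00624. With block and offsets, *Cldn5* was -0.0336, *Cdh5* 0.00617 and *Emcn* 0.00243, and without the 2 libraries *Cdh5* was 0.00871.

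With 1 library left out, members called ranged from 1 to 3, 0 to 1 and 1 to 2 in kidney (WD vs. CD, WD + CHP vs. WD, WD + CHP vs. CD) and from 0 to 1 in gastrocnemius WD vs. CD and WD + CHP vs. CD. All genes called ranged from 0 to 97 and from 1202 to 2150 in kidney WD + CHP vs. WD and vs. CD, and from 12 to 92 and from 873 to 1617 in gastrocnemius. Log2 fold changes that crossed 0 ranged in kidney from -0.00736 to 0.0621 (*Cdh5*) and -0.0108 to 0.0511 (*Kdr*) in WD vs. CD, and from -0.0611 to 0.0676 (*Flt1*) and -0.0107 to 0.0755 (*Tek*) in WD + CHP vs. CD. In gastrocnemius they ranged from -0.0918 to 0.0910 (*Cldn5*), -0.0613 to 0.0154 (*Cdh5*) and -0.157 to 0.0376 (*Egfl7*) in WD + CHP vs. WD, and from -0.132 to 0.0400 (*Kdr*) in WD + CHP vs. CD. Differences between tissues, an alternative added after seeing the data, ranged from -0.723 to -0.443 (*Cldn5*) and -0.0849 to 0.0432 (*Flt1*) in WD vs. CD, from 0.443 to 0.561 (*Eng*), -0.0545 to 0.0316 (*Tek*) and -0.0746 to 0.121 (*Egfl7*) in WD + CHP vs. WD, and from 0.276 to 0.391 (*Eng*), -0.0341 to 0.0617 (*Cdh5*), -0.0399 to 0.128 (*Kdr*) and -0.0437 to 0.121 (*Ehd3*) in WD + CHP vs. CD.

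Replicate numbers did not pair the libraries. The correlation of deviations between groups was -0.0907 to 0.144 in kidney and -0.126 to 0.146 in gastrocnemius, and 4 and 3 of 15 libraries were most like their own number. With the replicate block, 2, 0 and 2 members were called in kidney and 0, 0 and 0 in gastrocnemius. In simulated counts 32% and 16% of genes changed by 0.25 were called in kidney and gastrocnemius, so differences of that size could be missed with 5 libraries a group. The simulation changed 100 genes by 0.25 and 100 by 0.5, while 9.65% and 8.63% of all genes were called in WD vs. CD in the data. How often such differences were missed in the data was therefore not measured.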
